A study of Mus musculus with 2 samples.

Results

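The 10 genes described here are 6 matrix metalloproteinases (Mmp8, Mmp9, Mmp12, Mmp13, Mmp14 and Mmp19), 2 metalloproteinase inhibitors (Timp1 and Timp2) and 2 membrane proteases of the ADAM family (Adam8 and Adam17). They were chosen by name from 55536 annotated genes, with earlier results of these data known. Each symbol matched 1 gene identifier. RNA-seq of polyA plus RNA measured their transcripts in macrophages, the phagocytes of tissue, that had been differentiated in culture from C57BL/6J mouse bone marrow. All cells received lipid A at 100 ng/ml for 12 h, were washed out for 12 h, and received lipid A at 100 ng/ml again for 120 min. Lipid A is the part of bacterial lipopolysaccharide that the TLR4 receptor complex recognises. One label field names the agent lipid A and others name lipoprotein A. Sex and age are given as not collected. The 2 libraries, biological replicates 1 and 2, form 1 group and carry 1 donor identifier, so nothing shows that they came from separate animals, and part of their spread may be technical. No other group was analysed here, so the values show how much of each transcript the restimulated cells held and not whether lipid A raised or lowered it.

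Matrix metalloproteinases are zinc-dependent enzymes that cut collagens, elastin and other matrix proteins, and also cytokines and their receptors. Most are secreted as inactive precursors, while some, such as MMP14, stay in the membrane. TIMPs bind the active site and block it, and TIMP2 also forms a complex with MMP14 that activates the precursor of MMP2. ADAM proteases act at the cell surface, where they release the outer part of membrane proteins. ADAM17 is the enzyme that frees TNF from the macrophage membrane.

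All 8 enzymes share the zinc-binding site of this protease class. The coding bases of that site are printed to show what the 8 transcripts have in common and to define which of their splice forms can encode it. They were read from the GENCODE M21 transcripts, 5′ to 3′, and capitals mark the codons of the histidines, glutamate and glycine that define the motif.
Mmp8: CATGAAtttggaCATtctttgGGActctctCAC
Mmp9: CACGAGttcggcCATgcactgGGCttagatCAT
Mmp12: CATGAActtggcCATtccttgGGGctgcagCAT
Mmp13: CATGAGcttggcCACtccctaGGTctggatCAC
Mmp14: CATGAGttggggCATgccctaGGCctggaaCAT
Mmp19: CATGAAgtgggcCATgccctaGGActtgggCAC
Adam8: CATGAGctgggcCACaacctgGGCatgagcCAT
Adam17: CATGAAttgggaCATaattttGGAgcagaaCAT

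Over the 28 pairs of these sites, between 17 and 25 of the 33 bases were identical. Each site lay inside 1 exon. In Mmp14 it was in exon 5 of 10 (mm10, chr14:54437627-54437659, plus strand), and in Mmp8, Mmp13 and Mmp19 it was also in exon 5. The site of Adam17 was in exon 11 of 19 (chr12:21336732-21336764, minus strand), and that of Adam8 in exon 11 of 24 (chr7:139987893-139987925, minus strand).

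Mmp14 and Timp2 had the highest levels of the 10 genes, and both ADAM genes followed. Mmp13, Mmp12, Mmp19 and Mmp8 were present at a lower level, Timp1 was low and uneven, and Mmp9 was near the limit of detection. Levels are given in TPM, a measure per length of transcript that allows different genes to be set side by side. Of the 10 genes, 9 reached 1 TPM in both libraries, against 44.4% of all 22028 protein-coding genes, and 5 reached 10 TPM in both, against 27.2%. The 10 were chosen with earlier results of these data known, so nothing about the family is concluded from these shares. Of the 17 matrix metalloproteinase genes outside the set, 3 reached 1 TPM in both. The median of the mean level was 14.3 TPM over the 10 genes, 0.310 TPM over all protein-coding genes and 18.2 TPM over the protein-coding genes at 1 TPM or more in both.

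**Figure D1:**
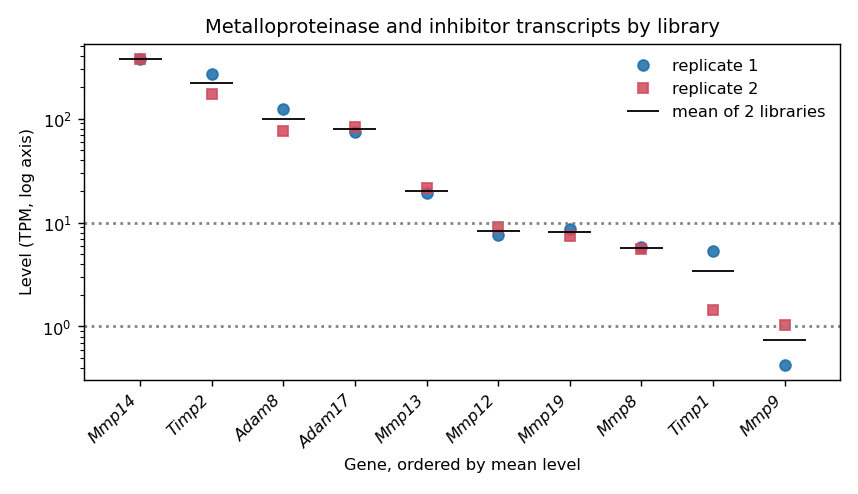
Level of each gene in TPM on a log axis, with a circle for replicate 1, a square for replicate 2 and a bar for their mean. Dotted lines mark 1 and 10 TPM. Mmp14 stands at 373 TPM in both libraries, and the largest gaps between the symbols are those of Timp1 (5.35 and 1.45 TPM) and Mmp9 (0.43 and 1.04 TPM).

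The macrophage markers were all detected, and those of other lineages ranged from none to a part of each list. Over all protein-coding genes, 44.4% reached 1 TPM and 27.2% reached 10 TPM in both libraries. All 8 macrophage markers reached 10 TPM in both libraries, led by lysozyme (Lyz2) at 8979 and 9815 TPM, Cd68 at 2852 and 4047 TPM and Adgre1 (F4/80) at 2554 and 2061 TPM. Replicate 1 held 45377715 expected counts and replicate 2 held 32112416. The limit that a count of 0 allows, 3 reads, corresponds to 0.0661 and 0.0934 CPM. No marker of fibroblasts (0 of 10), of T, B and NK cells (0 of 9), of mast cells (0 of 8) or of epithelium (0 of 5) reached 1 TPM in both libraries. The osteoblast and chondrocyte list had 1 of 9, Runx2 at 1.16 and 1.60 TPM, the endothelial list 3 of 8, the dendritic cell list 2 of 9, the osteoclast list 4 of 9 and the neutrophil list 5 of 14 such markers. The osteoclast markers were Acp5 at 73.2 and 36.5 TPM, Nfatc1 at 12.4 and 15.4 TPM, Atp6v0d2 at 14.4 and 11.4 TPM and Ctsk at 1.56 and 1.67 TPM, while Calcr had 0 reads. The endothelial markers were Kdr at 4.57 and 14.3 TPM, Vwf at 2.91 and 6.72 TPM and Pecam1 at 3.69 and 3.29 TPM, and the dendritic cell markers Batf3 at 7.21 and 2.34 TPM and Ccr7 at 4.55 and 3.60 TPM.

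Among the enzymes, Mmp14 (chromosome 14, 54431612 to 54445364), the membrane-anchored collagenase, was the most abundant, at 373 TPM in both libraries and 373 ± 0.47 TPM on average (SD, n = 2). With only 2 values, this SD is no measure of precision. The deposited intervals of the Mmp14 TPM were 357 to 368 and 353 to 365, below 373 in both libraries. The second deposited quantification gave 323 and 349 TPM. By the first, Mmp14 ranked 387th and 368th among the protein-coding genes. The 6 matrix metalloproteinases together came to 414 TPM in replicate 1 and 418 TPM in replicate 2, and Mmp14 made up 89.9% and 89.4% of these sums.

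The secreted collagenases were present at lower levels. Mmp13, collagenase 3 (chromosome 9, 7272514 to 7283331), was at 19.2 TPM in replicate 1 and 21.5 TPM in replicate 2, from 1440 and 1093 reads. Mmp8, the collagenase best known from neutrophil granules (chromosome 9, 7558456 to 7568485), was at 5.79 and 5.54 TPM, from 389 and 253 reads. The libraries differed little in both genes, by 1.13-fold and 1.03-fold. Over the same libraries, 5 of the 6 neutrophil markers averaging 10 or more reads were at least 2-fold higher in replicate 1. Of all genes averaging that many reads, 6.00% were. Of the highest of them, Lcn2 was at 96.0 and 43.2 TPM and S100a8 at 25.8 and 3.72 TPM, while Csf3r, the highest of all, was at 118 and 159 TPM and differed 1.08-fold by reads. The widest gaps were those of S100a9, at 26.4 and 1.18 TPM (20.4-fold by reads), and Ngp, at 7.99 and 0.40 TPM (18.9-fold). These folds rest on few reads in replicate 2: 194 and 6 for S100a9, and 235 and 8 for Ngp. Ltf was at 2.39 and 1.01 TPM, from 74 and 6 reads. Summed over the 14 neutrophil markers the level was 278 and 209 TPM, but Csf3r was the largest part of both sums and went the other way. The defining marker Ly6g had 0 reads in both. The part of these markers in the Mmp8 values was not tested.

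Mmp12, the macrophage elastase (chromosome 9, 7344381 to 7369499), was at 7.52 and 8.99 TPM, and Mmp19 (chromosome 10, 128790910 to 128800824) was at 8.70 and 7.39 TPM. The ranges of this pair overlapped, so their order could not be told. Mmp9, gelatinase B (chromosome 2, 164940780 to 164955850), was the lowest of the 10, at 0.43 TPM in replicate 1 and 1.04 TPM in replicate 2. These values rest on 39 and 23 reads. The read counts went the other way from the TPM: scaled to library size, Mmp9 was 1.14-fold higher in replicate 1, with a 95% counting interval of the log2 ratio from -1.0 to 0.59, while its TPM was 2.42-fold higher in replicate 2.

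The splice forms to which the reads were assigned differed between the libraries. In replicate 1 all 39 reads were given to Mmp9-201, the 3175-base transcript that encodes the whole enzyme. In replicate 2, 20.07 reads went to Mmp9-201 and 2.93 to Mmp9-202, a 462-base transcript with a retained intron. Those 2.93 reads, 12.7% of the gene's reads, made up 68.8% of its TPM. Mmp9-201 itself was at 0.43 and 0.33 TPM.

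The inhibitors differed widely. Timp2 (chromosome 11, 118301069 to 118355740) was at 268 TPM in replicate 1 and 172 TPM in replicate 2, a mean of 220.0 ± 68.0 TPM, and ranked second among the 10 genes. Timp1 (chromosome X, 20870166 to 20874735) was at 5.35 and 1.45 TPM, from 97 and 18 reads. Both were higher in replicate 1, by 1.40-fold for Timp2 and by 3.57-fold for Timp1. The 95% counting interval of the log2 ratio, replicate 2 over replicate 1, ran from -0.52 to -0.45 for Timp2 and from -2.67 to -1.12 for Timp1.

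Timp1 lies wholly within the gene Syn1, which is read from the opposite strand (chromosome X, 20860511 to 20921004). Syn1, a synapse protein gene, had 1010 and 1205 reads, more than Timp1 in both libraries. Whether the counting used strand is not given in the sources used here, so reads of the pair may not have been told apart, and the effect of this on Timp1 was not tested. Overlap with another annotated gene was found for 6 of the 10 genes: Mmp12, Mmp19, Timp2, Adam8 and Adam17 each had fewer reads in the partner, the largest being Iah1 beside Adam17 with 779 and 347 reads. The neutrophil markers with at least 10 reads were also mostly higher in replicate 1. Of the fibroblast markers, 3 of the 5 with at least 10 reads were at least 2-fold higher there, against 6.00% of all such genes. The list of 10 fibroblast markers summed to 1.96 and 1.32 TPM. All of these were under 1 TPM. Col3a1 differed 1.12-fold, and Pdgfrb went the other way, 1.97-fold higher in replicate 2, at 0.35 and 0.70 TPM. The part of the neutrophil and fibroblast markers in the Timp1 difference was not tested.

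Set against the enzymes, the TIMP transcripts were fewer. The sum of Timp1 and Timp2 divided by the sum of the 6 matrix metalloproteinases was 0.660 in replicate 1 and 0.415 in replicate 2, and Timp2 over Mmp14 was 0.720 and 0.461. Both ratios were under 1 in both libraries, and both were lower in replicate 2, where Mmp14 was at the same level and both TIMPs were lower. With Timp2 counted only as its transcript with a complete coding sequence, and enzymes only as transcripts that encode the zinc site, the ratio of Timp2 to Mmp14 was 0.417 and 0.298, and that of all TIMPs to all matrix metalloproteinases was 0.392 and 0.271.

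Of the ADAM genes, Adam8 (chromosome 7, 139978932 to 139992562), a protease and disintegrin of myeloid cells, was at 124 and 76.7 TPM. Adam17 (chromosome 12, 21323509 to 21373632) was at 75.2 and 83.8 TPM. Adam8 was 1.62-fold higher in replicate 1 by reads and Adam17 1.13-fold higher in replicate 2. Adam8 over Adam17 was 1.64 in replicate 1 and 0.914 in replicate 2, and the order of this pair differed between the libraries. Of the 9 neighbouring pairs in the order by mean TPM, 7 did not overlap, and the 2 that did were Adam8 with Adam17 and Mmp12 with Mmp19.

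By read counts, most of the 10 genes were close between the libraries. Timp1 was the only one at least 2-fold higher in replicate 1, where 6.00% of the 12552 genes averaging 10 or more reads were. None was at least 2-fold higher in replicate 2, where 5.29% of those genes were. The median size of the log2 ratio was 0.18 over the 10 genes and 0.36 over all 12552. The size of such a ratio depends on read depth, and no genes of like depth were set beside the 10. These counts compare 2 libraries of 1 group and no p-value is given.

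**Figure D2:**
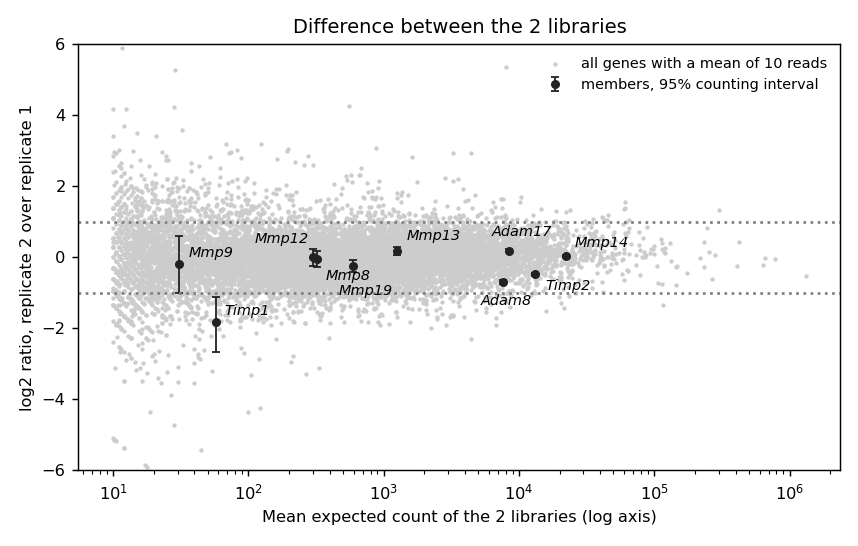
Log2 ratio of replicate 2 over replicate 1 against the mean expected count on a log axis. Grey points are the 12552 genes averaging 10 or more reads, of which 24 lie beyond the vertical limits of 6, black points are the 10 genes with 95% counting intervals, and dotted lines mark 2-fold. Timp1 alone lies past a dotted line, at -1.83.

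Several of these genes use more than 1 splice form, and not every form encodes the enzyme. In Mmp14, transcripts that encode the zinc site held 96.1% and 97.3% of the TPM, nearly all of it Mmp14-201. In Adam17 they held 94.2% and 94.8%, and in Adam8 97.3% and 95.9%. The Adam8 share was split between Adam8-201 (61.2% and 56.8%) and Adam8-202 (36.0% and 39.0%), whose coding sequences of 2475 and 2478 bases differ by 1 codon in length. Mmp8 and Mmp13 have 1 annotated transcript each. Mmp19 was divided between Mmp19-201 (72.0% and 67.0%) and Mmp19-203 (28.0% and 33.0%), both of which encode the site.

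Mmp12 and Timp2 were less simple. In Mmp12, transcripts with the zinc site held 33.0% of the TPM in replicate 1 and 77.8% in replicate 2. The form Mmp12-204, annotated as a target of nonsense-mediated decay, held 66.8% and 21.9%, and Mmp12-203, which encodes the site, held 5.28% and 56.4%. Mmp12-202, which also encodes it, held 27.0% and 21.4%. Their coding sequences, of 1209 bases in Mmp12-203 and 1017 in Mmp12-202, are shorter than the 1419 bases of Mmp12-201. That form was given only 5.62 and 0 reads. The gene as a whole differed only 1.00-fold by reads. In the second deposited quantification, Mmp12-204 held 38.3% and 10.8% and Mmp12-203 31.7% and 66.1%, so the direction was the same and the sizes were not. With 359 and 241 reads for 7 annotated forms, the split is imprecise.

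In Timp2 the 3709-base transcript Timp2-201, which holds the complete coding sequence of 660 bases, was at 149 and 108 TPM. The 718-base Timp2-202, whose annotated coding sequence is incomplete, held 44.3% and 37.0% of the gene's TPM from 9.16% and 7.06% of its reads. The second quantification gave Timp2-202 60.5% and 48.8%. Both Timp1 transcripts encode the same length of 615 bases and shared the low total, with Timp1-202 at 59.3% and 55.2%.

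**Figure D3:**
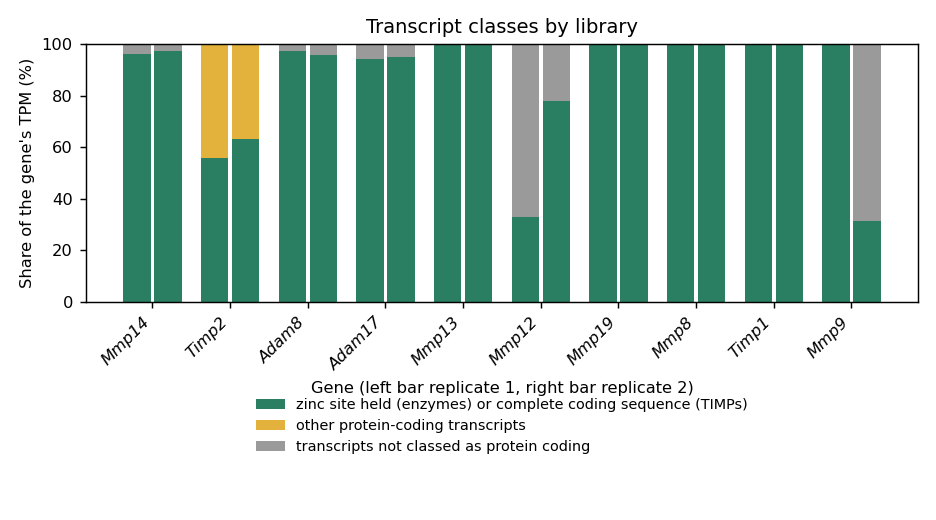
Share of each gene's TPM in percent by transcript class, with replicate 1 on the left and replicate 2 on the right of each pair of bars. Green marks transcripts that encode the zinc site (enzymes) or a complete coding sequence (TIMPs), yellow other protein-coding transcripts and grey the rest. Mmp12 (33.0% and 77.8% green) and Mmp9 differ most between the libraries, and Timp2 alone has a large yellow share (44.3% and 37.0%).

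Mmp8, Mmp12 and Mmp13 lie in a row of 10 matrix metalloproteinase genes that spans 427 kb of chromosome 9 (7272514 to 7699585). In this row 4 genes reached 1 TPM in both libraries: Mmp13, Mmp12, Mmp8 and Mmp27, which starts next to Mmp8 and was at 12.1 and 9.09 TPM. The other 6 were under 1 TPM. Of these, Mmp1b, Mmp3 (stromelysin 1), Mmp1a, Mmp20 and Mmp7 had 0 reads in both libraries, and Mmp10 (stromelysin 2) had 0 and 3 reads. Mmp12 overlaps Mmp1b at its end, and Mmp1b had no reads.

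**Figure D4:**
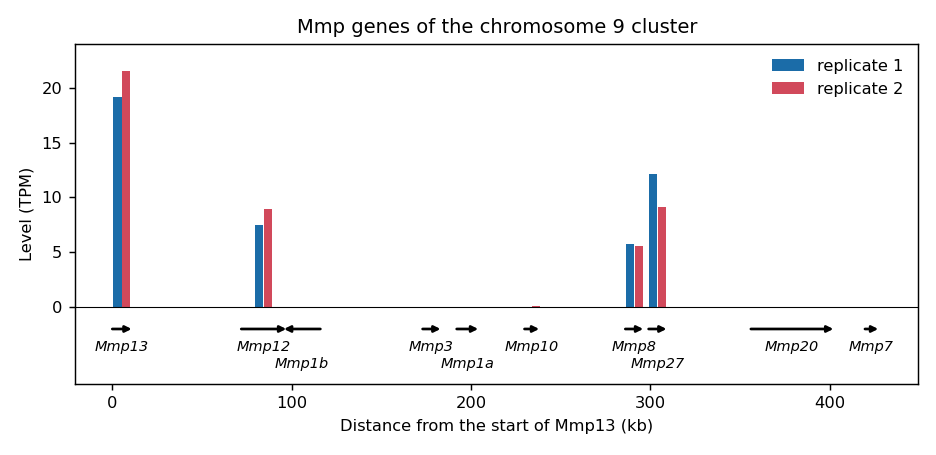
Level in TPM of the 10 genes of the chromosome 9 row, at their distance in kb from the start of Mmp13, with replicate 1 in blue and replicate 2 in red. Arrows below the axis show each gene's extent and direction. Bars stand over Mmp13, Mmp12, Mmp8 and Mmp27, and the other 6 positions are at or near 0.

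The bases just before the start of some of these genes are printed because the row holds detected and undetected genes side by side. Promoters of this family are known for sites of AP-1, the Fos and Jun factor. The windows are the 100 bases before the RefSeq start on mm10 (GRCm38.p6), all on the plus strand, 5′ to 3′, and capitals mark the letters TGACTCA or TGAGTCA, which are the same motif read on either strand. The first 4 belong to detected genes and the last 2 to genes under 1 TPM. They cover chr9:7272414-7272513 for Mmp13, chr9:7347274-7347373 for the second start of Mmp12, chr9:7558329-7558428 for Mmp8, chr9:7571296-7571395 for Mmp27, chr9:7445722-7445821 for Mmp3 and chr9:7502242-7502341 for Mmp10.
Mmp13: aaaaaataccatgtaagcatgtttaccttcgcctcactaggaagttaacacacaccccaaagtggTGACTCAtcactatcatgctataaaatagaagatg
Mmp12: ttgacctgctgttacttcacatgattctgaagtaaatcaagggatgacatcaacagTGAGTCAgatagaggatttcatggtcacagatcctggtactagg
Mmp8: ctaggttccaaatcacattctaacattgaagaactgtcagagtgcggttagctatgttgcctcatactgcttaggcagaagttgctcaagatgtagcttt
Mmp27: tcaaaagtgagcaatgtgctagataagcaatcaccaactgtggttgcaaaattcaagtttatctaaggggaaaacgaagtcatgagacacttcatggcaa
Mmp3: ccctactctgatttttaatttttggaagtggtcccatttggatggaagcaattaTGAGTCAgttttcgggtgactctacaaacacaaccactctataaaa
Mmp10: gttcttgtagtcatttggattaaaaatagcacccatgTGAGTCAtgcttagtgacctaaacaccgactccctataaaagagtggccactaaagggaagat

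The AP-1 letters occurred in the 250 bases before the start of 7 of the 10 genes of the row, and in 4.46% of all 32851 promoters of that length. Here and below, genes were counted with a match at any start, and the share over all was counted by promoter. The 10 are also neighbours of 1 gene family and not independent draws. The AP-1 letters lay 35 bases before the start of Mmp13 and 44 bases before the second start of Mmp12. The first start of Mmp12, where Mmp12-203 begins, had none. The 4 detected genes had them in 2 cases, and Mmp8 and Mmp27 did not. Of the 6 genes under 1 TPM 5 had them, among them Mmp3 at 46 and Mmp10 at 63 bases before the start. The letters were thus found on both sides of the detection limit within this row. Motifs of NF-kB, the other main factor downstream of TLR4, searched as 2 exact variants on both strands, occurred in none of the 10 genes of the row and in 0.225% of all promoters. At so low a share no match is the usual outcome for so few genes, so nothing is concluded from it. The letters TATAAA, on either strand, occurred in 7 of the 10 genes of the row and in 12.4% of all promoters. Of the 10 genes described here, 8 had a promoter entry, all but Mmp9 and Mmp19, of which the AP-1 letters were found in Mmp13 and Mmp12, TATAAA in Mmp13, and the NF-kB motif in none. A match describes letters in this window and not a site that is bound. Over the 300 bases around the start, the content of G and C was 43.7% in Mmp13, 46.0% in Mmp8 and 38.7% and 40.7% at the 2 starts of Mmp12, against a median of 52.7% over all promoters. It was 56.0% in Mmp14, 68.7% in Timp2, 70.0% in Adam17, 52.3% in Adam8 and 55.0% in Timp1. Adam8 was thus just under that median, and Mmp14, Timp2, Adam17 and Timp1 were above it. A relation of this content to the level of the genes was not tested.

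The remaining matrix metalloproteinase genes were mostly undetected. Of 17, 3 reached 1 TPM in both libraries: Mmp27, Mmp2 at 1.55 and 2.16 TPM, and Mmp25 at 1.96 and 1.40 TPM. Mmp2, gelatinase A, is the precursor that MMP14 activates together with TIMP2. Another 9 of the 17 had no read in either library, although the second quantification listed Mmp16 at 0.198 and 0.285 TPM and Mmp21 at 0.0187 and 0.0311 TPM. None of 8 other inhibitors reached 1 TPM, among them Timp3 at 0.11 and 0.08 TPM and Reck, a membrane inhibitor, at 0.05 and 0.15 TPM.

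Other ADAM proteases were present beside Adam8 and Adam17. For the counts below, the share over all protein-coding genes was 44.4%. Of 8 with proteolytic activity, 5 reached 1 TPM in both libraries: Adam15 at 87.9 and 114 TPM, Adam9 at 58.7 and 53.7 TPM, Adam10, the other main surface protease, at 31.5 and 35.6 TPM, Adam19 at 2.84 and 1.98 TPM, and Adam33 at 2.63 and 1.66 TPM. By the first quantification, the range of Adam15 overlapped that of Adam8 and lay above that of Adam17. The second quantification gave Adam15 57.3 and 68.1 TPM, a range that overlapped that of Adam17 and lay below that of Adam8. The place of Adam15 beside these genes thus depended on the quantification. Of 19 ADAMTS genes, secreted relatives that cut proteoglycans, only Adamts10 reached 1 TPM in both, at 1.46 and 1.38 TPM.

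**Figure D5:**
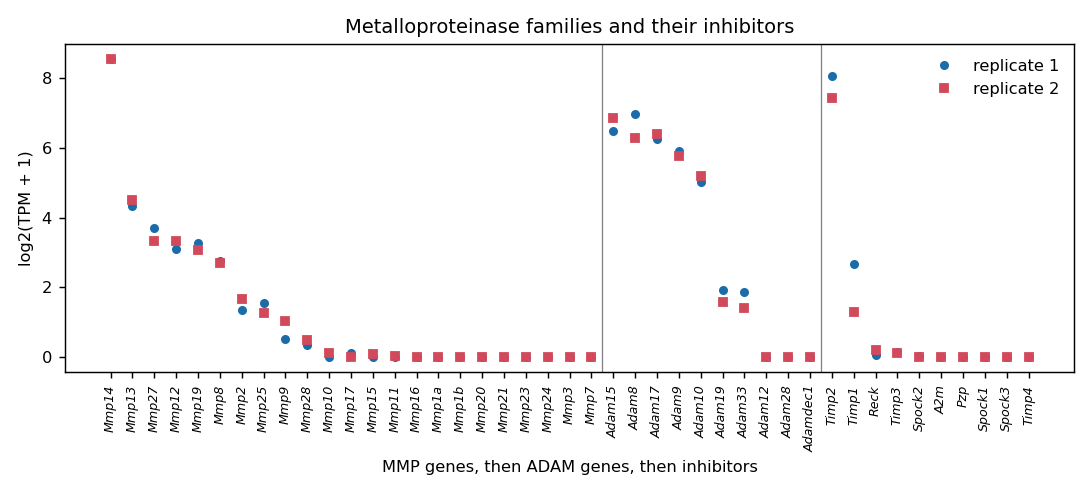
Levels as log2(TPM + 1) of all listed MMP genes, ADAM genes and inhibitors, ordered by mean within each family, with circles for replicate 1 and squares for replicate 2. Mmp14, Timp2 and 5 ADAM genes stand apart at the top of their families, and most other MMP genes and inhibitors lie at or near 0.

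Genes that bring ADAM17 to the cell surface were mostly detected beside it. Of 5, 4 reached 1 TPM in both libraries, against 44.4% of all protein-coding genes. Rhbdf2 (iRhom2), the partner that ADAM17 needs for its maturation in immune cells, was at 64.0 and 74.6 TPM, while its relative Rhbdf1 was at 0.18 and 0.24 TPM. Furin, the protease that removes the inhibitory prodomain, was at 42.3 and 69.2 TPM, Pacs2 at 35.6 and 38.2 TPM, and Frmd8, which stabilises the complex, at 17.4 and 7.45 TPM. Furin was 1.65-fold higher in replicate 2 and Frmd8 2.15-fold higher in replicate 1. The list's median level was 36.9 TPM.

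Of 25 known substrates of ADAM17, 15 reached 1 TPM and 13 reached 10 TPM in both libraries. Over all protein-coding genes the shares were 44.4% and 27.2%. The highest was Tnf at 1078 and 1184 TPM, followed by the TNF receptor Tnfrsf1b at 895 and 887 TPM and the adhesion molecule Icam1 at 544 and 689 TPM. The growth factor ligands Areg and Ereg had 0 reads and Tgfa was at 0.01 and 0 TPM. Between libraries, 1 of the 18 substrates with at least 10 reads was at least 2-fold higher in replicate 1, against 6.00% of all such genes. In replicate 2 there were 3, among them Cd44 at 125 and 313 TPM, against 5.29%.

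Of 17 genes for the activation and docking of matrix metalloproteinases, 12 reached 1 TPM in both libraries, against 44.4% of all protein-coding genes. The tetraspanin Cd63, which binds TIMP1, was at 937 and 812 TPM, Bsg (EMMPRIN) at 276 and 267 TPM, and Cd44, which holds MMP9 at the cell surface, at the values above. Plg, the precursor of plasmin, had 0 reads, and its activator Plau was at 45.1 and 22.6 TPM. Matrix proteins that the enzymes cut were mostly undetected: of 20, 3 reached 1 TPM in both, namely Spp1 (osteopontin) at 952 and 1140.0 TPM, the laminin chain Lamc1 at 3.89 and 5.07 TPM and versican (Vcan) at 1.00 and 2.14 TPM. Elastin (Eln), a substrate of MMP12, had 0 reads in both libraries, and the second quantification listed it at 0.360 and 0.299 TPM.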

How the data were processed

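Per the labels' protocols, RNA was extracted from 2 macrophage cultures of 1 group and sequenced as polyA plus libraries. The deposited gene tables hold expected counts, TPM and FPKM that the authors made from alignments to the transcriptome (mm10, GENCODE M21), and the deposited transcript tables add each form's share as a percent. A second deposited quantification, made directly from the reads, gives estimated counts and TPM. The sources used here do not give programs, versions or strand setting. Expected counts were rounded for intervals.

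Log2 ratios of replicate 2 over replicate 1 used TMM factors (edgeR 4.0.16), 0.5 prior reads and genes with a mean of at least 10 expected counts, and 2-fold or more was counted. Intervals are exact 95% binomial (Clopper-Pearson) and cover counting error only. Detection meant at least 1 TPM in both libraries. With 1 group there is no test and no p-value. Zinc sites were read with Biopython 1.88, and promoters came from RefSeq (GRCm38.p6). Scaling by library totals or by size factors from DESeq2 1.42.0 was tried as an alternative, as were other thresholds, FPKM, the second quantification and each library alone. The members and lists were chosen with earlier results of these data known. The rule for named genes was the 10 genes, the 3 highest of each other list, and detected genes where a list had 8 or fewer. It was not followed in full, since some detected macrophage markers and cathepsins are given as counts only. Of the lists' genes under 1 TPM most are given as counts only, and 1 list is not reported here. Other genes named, among them Ly6g, Ngp, Calcr, Mmp16, Mmp21, Rhbdf1, Areg, Ereg, Tgfa, Plau, Plg and Eln, were chosen after their values were seen.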

Additional observations from a re-analysis of the deposited data

How the results depend on the processing

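The number of the 10 genes at 10 TPM or more in both libraries rose from 5 to 8 with a threshold of 5 TPM, and that of other matrix metalloproteinase genes detected fell from 3 to 1. The number at least 2-fold apart went from 1 to 2 when TPM replaced read counts, with Mmp9 added, and to 0 with a minimum mean of 100 reads, which left out Timp1 and Mmp9. Of 40 recomputed log2 ratios 36 kept their direction. The exceptions were Mmp12, near 0 by reads and at 0.02 with DESeq2 size factors and 0.26 by TPM, Mmp9, at 1.25 by TPM with a pseudocount of 0.01, and Mmp14, at -0.04 with library totals. Counting only complete or zinc-site transcripts, an alternative chosen after seeing the data, moved the mean TIMP to MMP ratio from 0.538 to 0.332 and Timp2 to Mmp14 from 0.590 to 0.358. With each library alone these ratios ran from 0.415 to 0.660 and from 0.461 to 0.720, and Adam8 to Adam17 from 0.914 to 1.64. The second quantification gave 0.645, 0.710 and 1.26. Of 20 recomputed mean levels 16 stayed within the SD of the 2 libraries. The other 4 were those of Mmp8, Mmp13, Mmp14 and Adam17 in the second quantification, at 5.06, 17.6, 336 and 70.2 TPM. The remaining alternative, TPM rescaled to annotated genes, could hardly move a level. Only the second quantification was thus a check, and there 4 of the 10 levels moved. Of 10 recomputed leading transcript shares, 4 moved by more than the SD, those of Mmp14, Mmp19, Timp2 and Adam17. The cause of these shifts was not tested. Scaling moved the median of all genes by 0.020 (DESeq2 size factors) and -0.073 (library totals). Depth limits Mmp9 and Timp1 most. No paired analysis was possible because the libraries form 1 group.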

Other observations

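Cysteine and aspartic proteases of the lysosome, which also cut matrix proteins, were mostly at higher levels than the metalloproteinases, with a median of 3138 TPM. Of 7 cathepsin genes, 7 reached 1 TPM and 6 reached 10 TPM in both libraries, against 44.4% and 27.2% of all protein-coding genes. Ctsd was at 9246 and 7525 TPM, Ctsb at 9033 and 5627 TPM and Ctss at 3241 and 3769.9 TPM. Ctsk, the collagen-cutting cathepsin of osteoclasts, was at 1.56 and 1.67 TPM.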
